A study of Mus musculus with 12 samples.

Results

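The keratin and small proline-rich protein (Sprr) genes were taken as all genes in the table whose name is Krt or Sprr1 to Sprr4 followed by its number, leaving out 3 keratin pseudogenes with "-ps" in the name. This gave 69 genes (54 keratins and 15 Sprr genes) of 54532 in the table. The choice used names alone, but the families themselves were chosen by measured values, the differences between cystic and noncystic kidneys in mice with an intact Pkd2 gene, so that comparison is given below as a description, with no p-value for a gene. Of the 69 genes, 37 (30 keratins and 7 Sprr genes) reached an average log2CPM of -3 or more (CPM, the read count scaled to library size), the level above which genes were tested.

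RNA-seq was done on whole kidneys of 12 C57BL/6 mice (C57BL/6J in the study's methods), 18 days old, in 4 groups of 3. All groups carried the hypomorphic Pkd1 RC allele over a floxed Pkd1 allele: without Cre the mice were noncystic (Pkd1 RC/F, written Pkd1 RC/+), and with KspCre, which deletes the floxed allele in kidney tubule epithelium and leaves it in other cells, they were cystic (KspCre; Pkd1 RC/F, written Pkd1 RC/-). Each state was studied with Pkd2+/+ and with Pkd2Δ17/Δ17, a homozygous CRISPR/Cas9 deletion of the miR-17 binding motif from the 3′-UTR of Pkd2. The mice are numbered 19 to 21 (noncystic Pkd2+/+), 22 to 24 (noncystic Pkd2Δ17/Δ17), 25 to 27 (cystic Pkd2+/+) and 28 to 30 (cystic Pkd2Δ17/Δ17). The labels do not give their sex, and values for 3 mice are always listed in this order.

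Keratins are the intermediate filament proteins of epithelial cells. A filament forms only when a type I keratin (such as Krt18 or Krt19) pairs with a type II keratin (such as Krt8 or Krt7), and each kind of epithelium uses its own pairs: Krt8, Krt18, Krt7 and Krt19 in simple epithelia, among them the collecting duct, Krt5 with Krt14 or Krt15 in the basal layer of layered epithelia such as the urothelium of the renal pelvis, and a separate set in hair. Sprr proteins are short proline-rich proteins that transglutaminases cross-link into the cornified envelope of squamous cells, and several Sprr2 genes are also known to be switched on in stressed simple epithelia. In the GRCm38 build the Sprr genes lie together on chromosome 3, the type I keratins on chromosome 11, and the type II keratins with the type I gene Krt18 on chromosome 15.

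The Sprr2 genes are near copies of each other, so the first question was whether reads can be assigned to them. Sprr2f (chr3:92365187-92366442, + strand) and Sprr2g (chr3:92373915-92375229, + strand; annotated as a polymorphic pseudogene) carried most of the Sprr2 CPM in cystic kidneys (group means 94.03% with Pkd2+/+ and 85.6% with Pkd2Δ17/Δ17) but less in noncystic ones (24.02% and 29.7%), and their coding sequences differed at 26 of 228 aligned bases (88.6% identity). They are shown because the differing bases, in capitals, are spread over the whole length, so that no window of 100 bases of their transcripts was shared with any other gene.
Sprr2f: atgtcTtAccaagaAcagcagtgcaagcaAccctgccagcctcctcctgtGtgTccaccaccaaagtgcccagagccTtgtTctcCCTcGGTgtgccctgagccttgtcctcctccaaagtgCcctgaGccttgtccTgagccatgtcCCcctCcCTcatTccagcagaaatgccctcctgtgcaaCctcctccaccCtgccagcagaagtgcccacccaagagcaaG
Sprr2g: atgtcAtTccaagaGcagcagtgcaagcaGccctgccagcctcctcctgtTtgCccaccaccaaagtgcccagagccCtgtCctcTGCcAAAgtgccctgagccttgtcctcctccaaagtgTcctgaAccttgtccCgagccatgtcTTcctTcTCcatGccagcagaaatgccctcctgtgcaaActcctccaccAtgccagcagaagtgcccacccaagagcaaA
These coding sequences (GENCODE M21, GRCm38) span chr3:92365896-92366123 and chr3:92374640-92374868. The opposite holds for Sprr2a1 and Sprr2a2, whose coding sequences are identical and which shared 92.5% and 92.8% of their 100-base windows with another gene; Sprr2a3 shared 36.2%, Krt6a 34.0%, Krt6b 30.6%, Krt16 24.3% and Krt8 16.9% (with the pseudogene Krt8-ps, at most 2.01 CPM in any mouse). Counts of these genes are uncertain to that extent, since the counting kept reads that map to one place.

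Depth was similar in all mice, with 18800307 to 24453033 counts per library, and TMM scaling factors ran from 0.933 to 1.08, the higher values in the cystic kidneys. Scaling by library totals in place of TMM moved the median of all genes by 0.15 (log2) towards higher values in cystic kidneys with Pkd2Δ17/Δ17, so cystic-to-noncystic changes below are relative to TMM. One library stands apart: mouse 25 (cystic Pkd2+/+) had 0.813 CPM of Upk1b and 0.0774 CPM each of Upk2 and Upk3a, uroplakins that define the urothelium, against 6.31 CPM or more of Upk1b in the other mice, while it had the highest Aqp2 (1395 CPM), a collecting duct water channel. Calls of keratin and Sprr genes that rest on the cystic Pkd2+/+ mice are therefore also given without it.

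Most keratin RNA came from 4 simple epithelial keratins. Krt7, Krt8, Krt18 and Krt19 together held 83.8% to 88.6% of all keratin CPM in the noncystic kidneys, 93.7% to 95.4% in cystic Pkd2+/+ kidneys and 90.8% to 92.8% in cystic Pkd2Δ17/Δ17 kidneys. Summed keratin CPM was 900.3 ± 109 (SD, n = 3) and 891 ± 43.4 in the noncystic groups with Pkd2+/+ and Pkd2Δ17/Δ17, and 2276 ± 323 and 1507 ± 291 in the cystic groups. In whole kidneys, more cells of a type and more RNA per cell cannot be told apart.

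**Figure D1:**
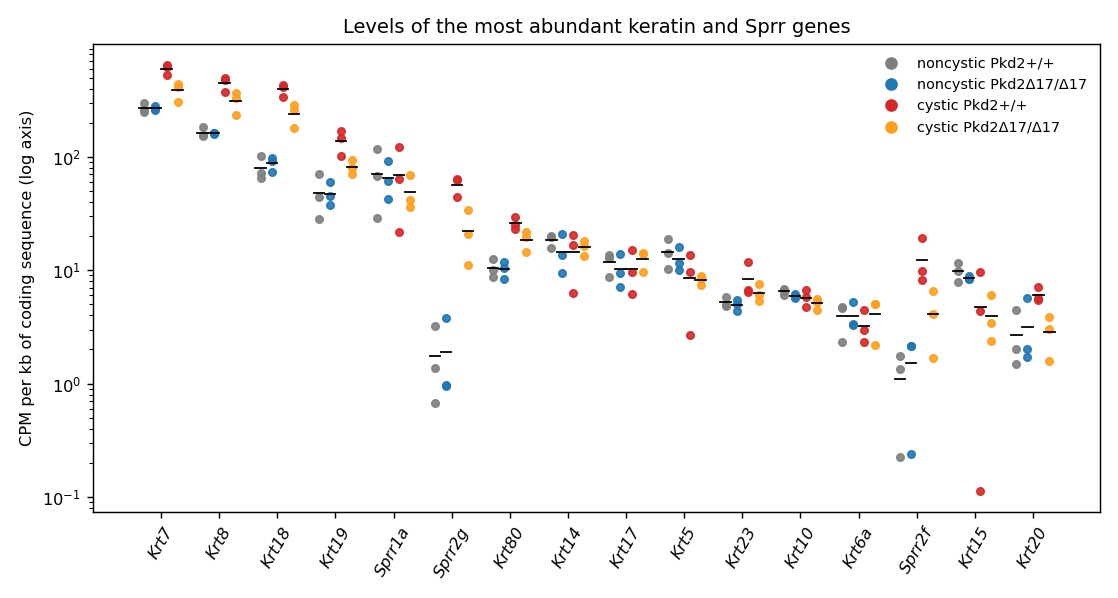
Levels of the 16 keratin and Sprr genes with the highest mean in cystic Pkd2Δ17/Δ17 kidneys, in CPM per kb of coding sequence on a log axis, with 1 point per mouse and a bar at the mean of each group. Krt7, Krt8 and Krt18 lead in every group, while Sprr2g changes its place most, from a mean of 1.76 in noncystic to 56.6 in cystic Pkd2+/+ kidneys.

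Levels of different genes are compared per kb of coding sequence. In cystic Pkd2+/+ kidneys the order was Krt7 (596 CPM per kb), Krt8 (449), Krt18 (393) and Krt19 (138), and in cystic Pkd2Δ17/Δ17 kidneys it was the same at 386, 309, 240.1 and 81.4. The place of Krt7 depends on the length used: its annotated transcript has 4094 bases with 1371 of them coding, and per kb of transcript it stood at 199.6 in cystic Pkd2+/+ kidneys, below Krt18 (347) and Krt8 (337). The next keratins were far lower, with Krt80 at 25.9, Krt14 at 14.5 and Krt17 at 10.3 CPM per kb of coding sequence in cystic Pkd2+/+ kidneys. Sprr1a, at 69.4, was the only Sprr gene near the leading keratins in all 4 groups.

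Krt8 and Krt18 are each other's usual partners, and their balance differed between the states. The ratio of Krt18 to Krt8, each as CPM per kb of transcript, was 0.506, 0.652 and 0.543 in noncystic Pkd2+/+ mice and 0.531, 0.708 and 0.681 in noncystic Pkd2Δ17/Δ17 mice. It was 1.05, 1.02 and 1.03 in cystic Pkd2+/+ mice and 0.888, 0.925 and 0.921 in cystic Pkd2Δ17/Δ17 mice. All cystic values lay above all noncystic ones, and the cystic groups did not overlap; the ratio was noticed in these data and was not tested. Its size depends on the length used, while the order of the mice does not. Per kb of coding sequence mean Krt18 was below mean Krt8 in both cystic groups. The means were 393 against 449 CPM per kb with Pkd2+/+ and 240.1 against 309 with Pkd2Δ17/Δ17.

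Between cystic and noncystic kidneys with Pkd2Δ17/Δ17, which asks what cystic disease does when the motif is absent and which shares no mouse with the comparison that drew attention to these genes, 6 of the 37 tested genes rose and 2 fell (edgeR quasi-likelihood test, Benjamini-Hochberg adjusted p under 0.05). Over all 24642 genes tested, 12.8% were higher and 10.2% lower in this comparison, so the count of 6 (16.2%) is near the share over all genes. The genes that rose were Krt18, Krt8, Krt7, Krt19, Krt80 and Sprr2g. The median log2 fold change was 0.12 over the tested family members (0.09 with members at 0 reads in a group set to their bound) and -0.0032 over all genes.

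**Figure D2:**
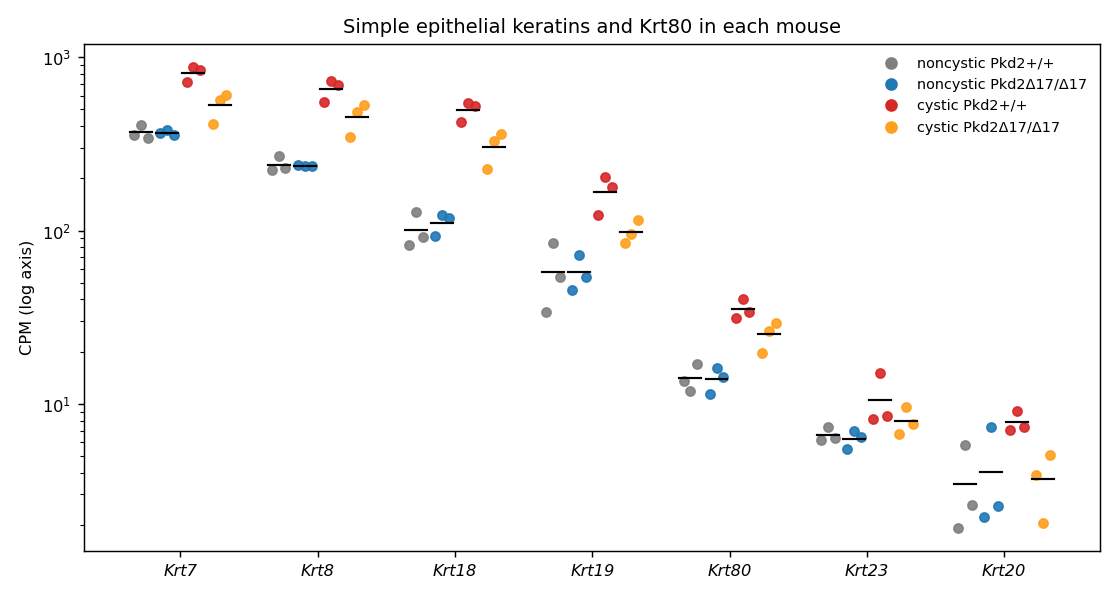
CPM of the simple epithelial keratins and Krt80 in each mouse on a log axis, coloured by group, with a bar at the mean of each group. For Krt7, Krt8, Krt18 and Krt80 every cystic mouse lies above every noncystic mouse of either genotype, and mouse 28 is the lowest of the cystic mice.

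Krt18 (chr15:102028180-102032027, + strand), the type I keratin of simple epithelia, was at 92.6, 123 and 117 CPM in noncystic and 226, 328 and 360.2 CPM in cystic Pkd2Δ17/Δ17 mice. The groups did not overlap, and Krt18 rose by 1.46 ± 0.18 on the log2 scale (SE; 2.75-fold, adjusted p = 1.9e-05 in edgeR). Its partner Krt8 (chr15:101996698-102004482, - strand) stood at 238, 236 and 235 CPM in the noncystic and 346, 483 and 533 CPM in the cystic mice, and rose by 0.94 ± 0.14 (1.92-fold, adjusted p = 9.0e-05). The noncystic values of Krt8 lie within a few CPM of each other, and again no mouse of one group reached the other.

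Krt7 (chr15:101411043-101430313, + strand), a type II keratin of ducts and urothelium, was at 364, 382 and 358 CPM in noncystic and 414, 570.3 and 603 CPM in cystic Pkd2Δ17/Δ17 mice, a rise of 0.52 ± 0.12 (1.44-fold, adjusted p = 0.0047). Krt19 (chr11:100140810-100148665, - strand), a type I keratin of ducts, was at 45.2, 72.6 and 54.3 CPM against 85.0, 95.9 and 114 CPM, a rise of 0.78 ± 0.25 (1.72-fold, adjusted p = 0.035). Of the 6 rises that of Krt19 was the least stable, since it missed the threshold without mouse 22, 24, 29 or 30 (adjusted p from 0.068 to 0.15). With all mice it also missed it in DESeq2 (adjusted p = 0.080) and in edgeR with Xist as a covariate (0.070). Krt80 (chr15:101347444-101370162, - strand), a type II keratin of differentiating epithelial cells, was at 11.4, 16.1 and 14.2 CPM against 19.6, 26.5 and 29.3 CPM and rose by 0.85 ± 0.17 (1.80-fold, adjusted p = 0.0012).

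Krt23 and Krt20, the other keratins of the simple epithelial group, did not pass the test in this comparison. Krt23, a stress-responsive type I keratin, was at 5.50, 6.93 and 6.44 CPM in noncystic and 6.73, 9.54 and 7.65 CPM in cystic Pkd2Δ17/Δ17 mice (adjusted p = 0.31). Krt20, best known from the gut and from the umbrella cells of the urothelium, was at 2.23, 7.36 and 2.59 CPM against 3.89, 2.05 and 5.05 CPM (adjusted p = 0.86), with the groups overlapping in full.

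Sprr2g showed the largest rise among the 37 tested genes. It had 16, 4 and 4 reads (0.872, 0.218 and 0.220 CPM) in noncystic and 53, 98 and 160 reads (2.55, 4.79 and 7.70 CPM) in cystic Pkd2Δ17/Δ17 mice. It rose by 3.50 ± 0.51 on the log2 scale (11.3-fold, adjusted p = 8.3e-05), and passed the threshold in all 14 alternative fits. The size rested on single mice, with 4.47 on the log2 scale without mouse 22 and 3.05 without mouse 30. Sprr2f had 9, 9 and 1 reads against 8, 19 and 31 reads, a difference of 1.42 ± 0.65 with an adjusted p of 0.14, so that no change of Sprr2f was detectable at this depth. Summed over all Sprr2 genes, the log2 ratio of mean CPM was 1.46 against 3.52 for Sprr2g alone.

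The 2 genes that fell were Krt79 and Krt25, both at low counts. Krt79, a type II keratin of the hair follicle's upper part and of other lining epithelia, had 18, 9 and 10 reads in noncystic and 5, 1 and 5 reads in cystic Pkd2Δ17/Δ17 mice, a difference of -1.89 ± 0.65 (adjusted p = 0.045). Krt25, a keratin of the inner root sheath of hair, had 2, 2 and 9 reads against 0 in all 3 cystic mice, which is at least 4.90-fold lower when 3 reads over the group are taken as the floor (adjusted p = 0.032). Both calls were lost when mouse 24, 28, 29 or 30 was left out (adjusted p from 0.064 to 0.16), and that of Krt79 also without mouse 22 (0.17).

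Of 18 desmosomal and filament-linking partners of keratins, 8 were higher, 1 was lower and 9 did not pass the test, beside the 12.8% and 10.2% of all genes given above: desmoplakin (Dsp), which anchors keratin filaments to desmosomes, was higher by 0.89 (log2, adjusted p = 9.8e-05), plectin (Plec), a filament cross-linker, by 0.72 (0.00038) and Fam83h, a regulator of keratin assembly, by 0.44 (0.0012), while Pkp4 differed by -0.48 (0.00055). Of 13 other cytoplasmic intermediate filament genes, 3 were higher, vimentin (Vim) by 0.70 (9.4e-06), nestin (Nes) by 0.55 (0.00040) and syncoilin (Sync) by 1.67 (0.0012), and none was lower. Median log2 fold changes of these lists were 0.28 and 0.38, against -0.0032 over all genes.

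Of 23 genes of the cornified envelope tested, 6 were higher in cystic Pkd2Δ17/Δ17 kidneys, 0 were lower and 17 did not pass the test, beside 12.8% and 10.2% of all genes, and their median was -0.08. They were led by Lgals7, a lectin of layered epithelia (3.30, adjusted p = 1.5e-05), the epithelial 14-3-3 protein Sfn (1.09, 0.00030), and the plakins Ppl (0.74, 0.0016) and Evpl (0.41, 0.0052), which also occur outside squamous cells. Dmkn (1.68, adjusted p = 0.015 in edgeR) and Scel (0.62, 0.023) were also higher. Loricrin (Lor), filaggrin (Flg) and Krtdap, defining genes of cornified skin, stayed at or below 2.78, 0.655 and 0.171 CPM in every mouse. Tgm1, of the same list, was at 12.9 to 23.2 CPM and did not pass the test.

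Of 20 transcription factors of squamous and other epithelia, 6 were higher and 0 lower in cystic than in noncystic Pkd2Δ17/Δ17 kidneys. Over all genes 12.8% were higher and 10.2% lower. They included Grhl2 (0.74, adjusted p = 7.4e-05), Tfap2a (0.95, 0.00049) and Elf3 (0.83, 0.00059). The median over the list was 0.20.

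Some markers of other cells and states also differed in the same comparison, in which 12.8% of all genes were higher and 10.2% lower. Of 14 tubule injury genes 9 were higher and 1 lower, among them Lgals3 (1.44), Sox4 (1.43) and Lcn2 (2.65), and their summed CPM ran from 2175 to 2368 in noncystic and from 3406 to 5245 in cystic Pkd2Δ17/Δ17 mice. Of 12 collecting duct genes 6 were higher, led by Hsd11b2 (1.37) and Scnn1g (1.06), and 1, Calb1, was lower (-1.27); their sums were 2041 to 2457 against 2540 to 3562 CPM. Of 12 urothelial genes 1 was higher (Gata3, 1.06) and 1 lower (Fgfbp1, -0.66), no uroplakin passed the test, and the median over the list was -0.99. Of 7 genes of mesothelium and kidney capsule 0 were higher and 2, Wt1 (-0.82) and Gpm6a (-0.50), were lower. Of 8 tested skin and hair follicle genes 1, Lgals7, was higher. The medians were 0.83 for the injury and 0.63 for the collecting duct genes. The part of these cells and states in the keratin values was not tested.

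**Figure D3:**
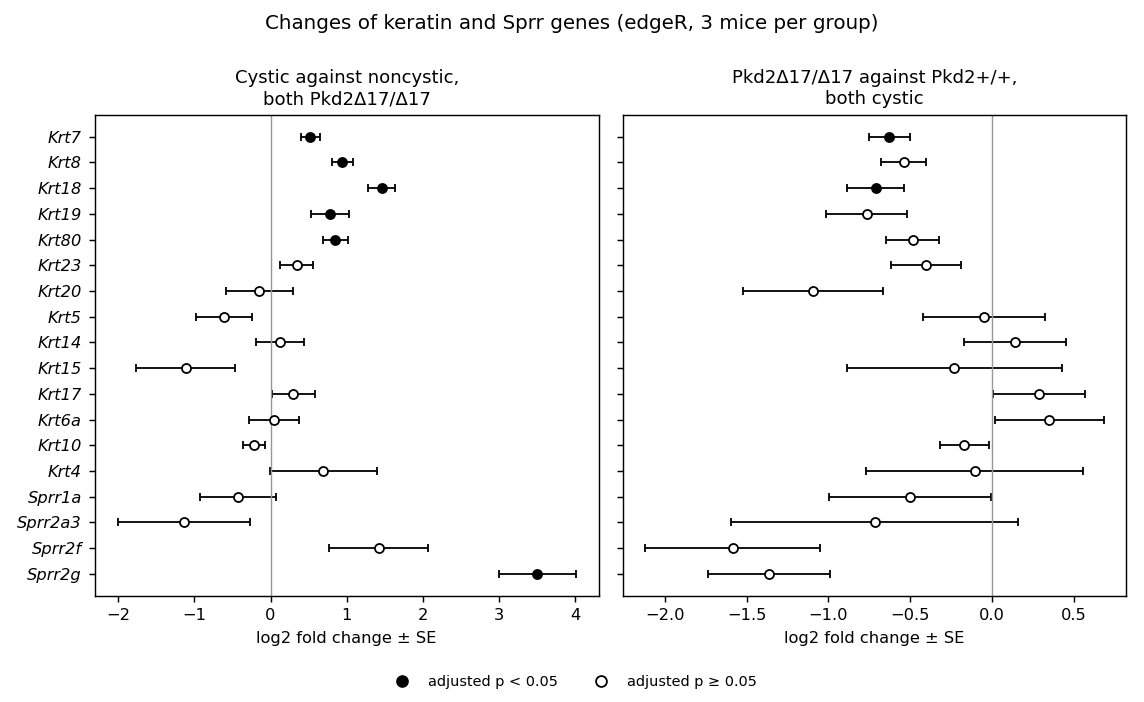
Log2 fold change with its SE (edgeR, 3 mice per group) for 18 keratin and Sprr genes, on the left for cystic against noncystic kidneys with Pkd2Δ17/Δ17 and on the right for Pkd2Δ17/Δ17 against Pkd2+/+ in cystic kidneys; filled points have an adjusted p under 0.05. On the left 5 keratins and Sprr2g are filled, on the right Krt7 and Krt18.

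Deleting the Pkd2 motif in cystic kidneys was accompanied by lower Krt7 and Krt18. These were 2 of the 37 tested genes (5.41%), none was higher, and over all genes 1.04% were lower and 1.19% higher. The comparison shares the cystic Pkd2+/+ mice with the one that drew attention to these genes. The median log2 difference over the tested family members was -0.05, and 0.00075 over all genes.

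Krt7 was at 724, 879 and 847 CPM in cystic Pkd2+/+ mice and at 414, 570.3 and 603 CPM in cystic Pkd2Δ17/Δ17 mice, with no overlap. The log2 difference was -0.63 ± 0.12 (1.54-fold lower, adjusted p = 0.016). Krt18 was at 425, 547 and 524 CPM against 226, 328 and 360.2 CPM, also without overlap, a difference of -0.71 ± 0.17 (1.64-fold lower, adjusted p = 0.043). Krt8 was just outside the threshold, at 551, 734 and 695 CPM against 346, 483 and 533 CPM (-0.54 ± 0.14, adjusted p = 0.051), and passed it in limma-trend (0.0498) and DESeq2 (0.0054). Of the 14 alternative fits Krt8 passed in 6. In edgeR its adjusted p was 0.15, 0.18, 0.22 and 0.12 without mouse 26, 27, 28 or 29. It was 0.16 in a fit on the cystic groups alone. The calls rested on single mice: Krt7 missed the threshold without mouse 27 (adjusted p = 0.072) or 28 (0.062), and Krt18 without mouse 26 (0.12), 27 (0.15), 28 (0.21) or 29 (0.11). Without mouse 25, which had little uroplakin RNA, 5 genes were called (adjusted p = 0.0047 for Krt7 and 0.016 for Krt18), Krt8, Krt19 and Sprr2g being added, and in a fit on the cystic groups alone 0 were called (0.078 for Krt7 and 0.079 for Krt18).

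Other genes of the simple epithelial set and Sprr2 genes gave lower values in cystic Pkd2Δ17/Δ17 mice without passing the test. Krt19 was at 122, 202 and 178 CPM against 85.0, 95.9 and 114 CPM (-0.77 ± 0.25, adjusted p = 0.14). Krt80 was at 31.2, 40.3 and 34.0 CPM against 19.6, 26.5 and 29.3 CPM (-0.48 ± 0.16, adjusted p = 0.15). In both genes the groups did not overlap. With so few mice per group, such separation can arise by chance. How many of all genes separate in this way was not counted, for these or for any other genes named here. The cystic Pkd2+/+ mice were also among those by which the families were chosen. Separation is therefore given as a description and adds nothing to a difference that did not pass the test.

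Krt20 was at 7.09, 9.11 and 7.35 CPM against 3.89, 2.05 and 5.05 CPM (-1.09 ± 0.43, adjusted p = 0.24). Krt23 was at 8.17, 15.0 and 8.48 CPM against 6.73, 9.54 and 7.65 CPM (adjusted p = 0.42). Krt20 did not overlap between the groups and Krt23 did, which is also given as a description only.

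**Figure D4:**
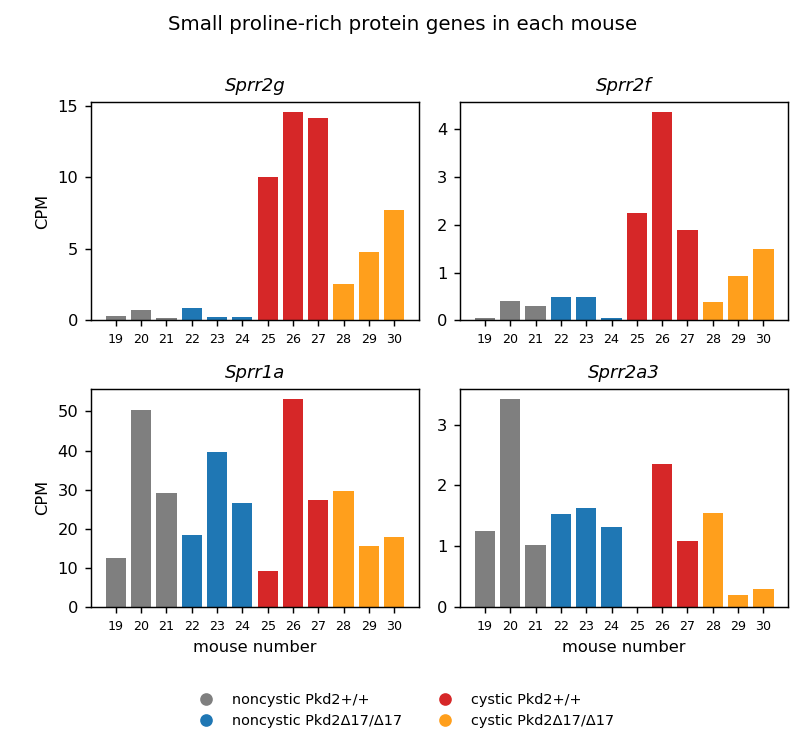
CPM of 4 Sprr genes in each mouse as bars from 0, coloured by group and ordered by mouse number. Sprr2g and Sprr2f are highest in mice 25 to 27, while Sprr1a and Sprr2a3 vary within groups and are lowest in mouse 25.

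Sprr2g had 259, 297 and 301 reads (10.03, 14.5 and 14.2 CPM) in cystic Pkd2+/+ mice and 53, 98 and 160 reads in cystic Pkd2Δ17/Δ17 mice, a difference of -1.36 ± 0.37 (adjusted p = 0.073). Sprr2f had 58, 89 and 40 reads against 8, 19 and 31 reads, a difference of -1.59 ± 0.53 (adjusted p = 0.15). No mouse overlapped in either gene, but neither gene passed the test and the separation is given as a description only. Among the cystic Pkd2Δ17/Δ17 mice the order was the same in Krt7, Krt8, Krt18, Krt19, Krt80, Sprr2f and Sprr2g, with mouse 28 lowest and mouse 30 highest. Krt20, lowest in mouse 29, and Krt23, highest in mouse 29, did not follow it. How many of all genes have this order was not counted.

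Of 14 tubule injury genes 5 were lower with the deletion, 0 were higher and 9 did not pass the test, beside 1.04% and 1.19% of all genes, and their median was -0.60. The genes that were lower included Lgals3 (-0.93, adjusted p = 0.0017), Clu (-1.11, 0.0061), Vcam1 (adjusted p = 0.0072) and Havcr1 (-1.72, 0.031). Lgals3 (159.7, 199 and 212 CPM in mice 28 to 30) and Clu (512, 611 and 1038 CPM) were lowest in mouse 28 and highest in mouse 30, while Vcam1 (17.5, 11.9 and 15.1 CPM) and Havcr1 (1.01, 0.929 and 3.22 CPM) were lowest in mouse 29. Of the collecting duct genes 1, Elf5, was lower (-0.84, 0.032), of the urothelial genes 1, Gata3, was lower (-0.61, 0.032), of the mesothelial genes 1, Gpm6a, was higher (0.61, 0.0022), and of the skin and hair follicle genes 0 passed the test. Of the keratin partners 0 of 18 passed the test, of the other intermediate filament genes vimentin alone (-0.36, 0.028), and of the cornified envelope genes 0 of 23. Among the transcription factors Tfap2a was lower (-0.71, 0.030) and Tfap2b higher (0.48, 0.021). The part of injured or collecting duct cells in the keratin difference was not tested.

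In noncystic kidneys no gene of the families passed the test for the deletion. Of the 37 tested 0 passed the threshold in edgeR, limma-trend or DESeq2, where 0.00406% of all genes were called in edgeR. At an unadjusted p under 0.05 in edgeR there were 2 of the 37 (Krt87 and Sprr1b), and 1555 of all 24642 genes. The adjusted p of the family ran from 0.77 upwards. Krt7 was at 358, 407 and 341 CPM in Pkd2+/+ and 364, 382 and 358 CPM in Pkd2Δ17/Δ17 mice, Krt8 at 223, 269 and 229.8 CPM against 238, 236 and 235 CPM, and Krt18 at 82.7, 129 and 91.7 CPM against 92.6, 123 and 117 CPM. The noncystic groups overlapped in all 3 genes.

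The interaction asks whether the deletion had another effect in cystic than in noncystic kidneys. No gene of the families passed it in edgeR, limma-trend or DESeq2, where 0.0122% of all genes were called in edgeR, and DESeq2 gave 15 of the 37 no adjusted p. At an unadjusted p under 0.05 in edgeR there were 9 of the 37, and 2053 of all 24642 genes. The interaction includes the Pkd2+/+ mice by which the families were chosen, so nothing is read from the count of 9. The smallest adjusted p was that of Krt7 (0.29, log2 difference -0.62 ± 0.17), followed by Krt18 (0.33, -0.85 ± 0.25), and without mouse 25 these were 0.12 and 0.15. The lower Krt7 and Krt18 of cystic Pkd2Δ17/Δ17 kidneys are therefore not shown to be particular to the cystic state.

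For cystic against noncystic kidneys with Pkd2+/+, the comparison known when the families were picked, values are given as a description. In the same fit 11 of the 37 genes were past the threshold as higher and 1 as lower, beside 16.9% and 14.2% of all genes, and since this comparison chose the families nothing is read from these counts. Per mouse, noncystic Pkd2+/+ kidneys held 33.9, 84.7 and 53.7 CPM of Krt19, 13.6, 11.9 and 16.9 CPM of Krt80, 6.18, 7.36 and 6.31 CPM of Krt23 and 1.92, 5.82 and 2.59 CPM of Krt20. They held 6, 13 and 3 reads of Sprr2g and 1, 7 and 6 reads of Sprr2f. The cystic Pkd2+/+ mice lay above these values in every one of the 6 genes. How many of all genes separate in this way was not counted, and nothing is read from it. The log2 differences were 5.02 for Sprr2g, 3.47 for Sprr2f, 2.30 for Krt18, 1.55 for Krt19, 1.46 for Krt8, 1.32 for Krt80, 1.19 for Krt20, 1.15 for Krt7 and 0.67 for Krt23. Krt87 (1.83) and Krt83 were higher at very low counts, and neither was past the threshold without mouse 19, 20, 21 or 25. Krt83 had 0 reads in all noncystic mice and 7, 1 and 6 reads in the cystic ones (at least 3.90-fold higher with 3 reads over the group as the floor). Sprr2a1, which shares nearly all of its sequence with Sprr2a2, had 2, 3 and 1 reads in noncystic and 0 in cystic mice (at least 2.39-fold lower). It was not past the threshold when any 1 of the mice 19, 20, 21, 25, 26 or 27 was left out.

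The basal keratins of layered epithelia were present but passed the test in no comparison. Krt5, the type II keratin of basal cells, was at 17.8, 32.8 and 24.8 CPM in noncystic Pkd2+/+, 20.1, 28.04 and 17.5 CPM in noncystic Pkd2Δ17/Δ17, 4.65, 23.6 and 16.7 CPM in cystic Pkd2+/+ and 15.6, 14.6 and 12.8 CPM in cystic Pkd2Δ17/Δ17 mice. Krt15, a type I basal keratin, was at 10.9, 15.8 and 13.5 CPM, 11.4, 12.3 and 11.4 CPM, 0.155, 13.3 and 5.93 CPM, and 8.32, 4.65 and 3.27 CPM in the same groups. The cystic Pkd2Δ17/Δ17 mice lay below the noncystic ones for both genes, with adjusted p of 0.28 and 0.26 (both were called in a fit on the compared groups alone), and mouse 25 was the lowest of all.

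Krt14, the partner of Krt5 in basal cells, was at 28.5, 22.8 and 29.3 CPM, 30.1, 19.7 and 13.8 CPM, 9.14, 24.3 and 29.5 CPM, and 19.2, 26.02 and 23.9 CPM. Krt17, a type I keratin of basal and injured epithelium, was at 17.8, 11.3 and 16.7 CPM, 18.0, 12.3 and 9.30 CPM, 7.98, 12.5 and 19.5 CPM, and 12.5, 18.3 and 18.0 CPM. Both overlapped between all groups, and again mouse 25 was the lowest.

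**Figure D5:**
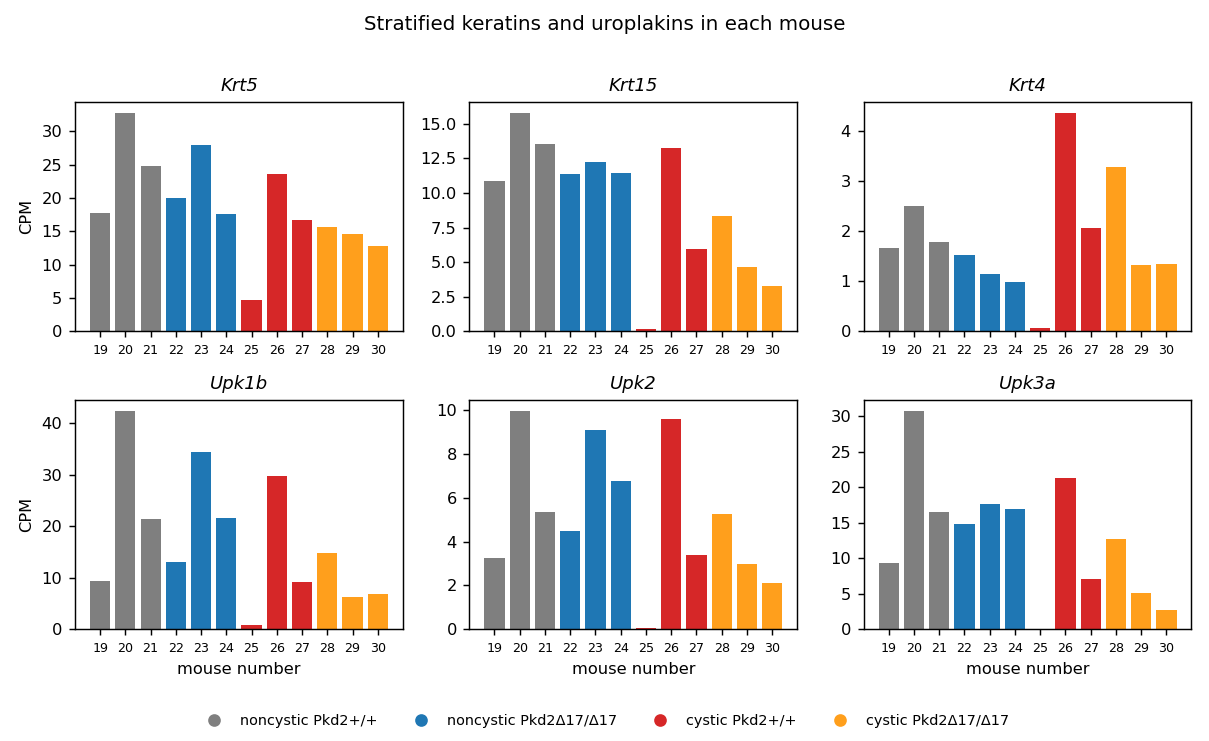
CPM of 3 keratins of layered epithelia (upper row) and 3 uroplakins (lower row) in each mouse as bars from 0, coloured by group. All 6 genes are lowest in mouse 25, from 0.0774 to 4.65 CPM, and mouse 26 of the same group is at 4.36 CPM of Krt4 and 29.7 CPM of Upk1b.

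The mice with the most uroplakin RNA were also those with the most Sprr1a. Sprr1a (chr3:92483952-92485895, - strand), an envelope protein of layered epithelia that is also induced by injury in other cells, was at 12.6, 50.5 and 29.05 CPM in noncystic Pkd2+/+, 18.5, 39.6 and 26.7 CPM in noncystic Pkd2Δ17/Δ17, 9.33, 53.2 and 27.4 CPM in cystic Pkd2+/+ and 29.6, 15.6 and 17.9 CPM in cystic Pkd2Δ17/Δ17 mice. Mice 26, 20 and 23 had the highest Sprr1a and, in another order, the highest Upk1b (29.7, 42.4 and 34.4 CPM), and mouse 25 the lowest of both. Sprr1a did not pass the test in any comparison (adjusted p from 0.62 to 0.98).

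Krt4 and Sprr2a3 were also lowest in mouse 25. Krt4, a type II keratin of mucosal layered epithelia, had 2 reads in mouse 25 and 18 to 89 reads in the other mice, highest in mouse 26. Sprr2a3 had 0 reads in mouse 25 and 4 to 60 reads in the others, highest in mouse 20; a count of 0 allows up to 3 reads. The summed CPM of the 12 urothelial genes, which include Gata3, was 136 to 289 in noncystic Pkd2+/+, 160.1 to 216 in noncystic Pkd2Δ17/Δ17, 133 to 288 in cystic Pkd2+/+ and 144 to 173 in cystic Pkd2Δ17/Δ17 mice. The sum of mouse 25 (133) was close to that of mouse 19 (136), although mouse 25 had far less Upk1b. The sums therefore do not stand for the uroplakins alone. How much urothelium each sample held was not tested.

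Krt6a, Krt6b and Krt16, keratins of activated and wounded skin, share part of their sequence with neighbouring copies. Krt6a was at 7.74, 3.88 and 7.88 CPM, 8.77, 5.51 and 5.56 CPM, 3.83, 4.90 and 7.35 CPM, and 3.65, 8.41 and 8.37 CPM in the 4 groups. Krt6b was at 0.542 to 2.29 CPM and Krt16 at 0.392 to 1.51 CPM over the 12 mice, and none passed the test. Krt10, a type I keratin of the layers above the basal one, was at 10.2, 11.5 and 11.1 CPM, 10.4, 9.87 and 9.63 CPM, 9.76, 7.93 and 11.2 CPM, and 9.37, 7.43 and 8.90 CPM in the 4 groups. Its type II partner Krt1 had 2 to 10 reads per mouse. Krt76, Krt13 and Krt78, keratins of oral and other mucosal layers, had at most 12, 16 and 8 reads in a mouse.

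The remaining tested genes were near the limit of detection. Krt42 and Krt222, both little studied in the kidney, had 11 to 36 and 7 to 31 reads per mouse, and Krt90 at most 10. Among the hair and root sheath keratins Krt87 had at most 21 reads, Krt25 9, Krt28 7, Krt83 7, Krt75 4 and Krt88 2. Sprr1b had 6 reads in mouse 23, 3 in mouse 30, 2 in mouse 22 and 0 elsewhere, and Sprr2a2 had at most 2.

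The 32 genes below the cutoff had at most 4 reads in any mouse and at most 8 over all 12. Of them 11 had no read in any mouse, 19 had 1 to 5 reads in all and 2, Krt26 and Krt36, had more. They include Sprr3, Sprr4, Sprr2b, Sprr2d, Sprr2e, Sprr2h, Sprr2i and Sprr2k, the epidermal keratins Krt2, Krt9 and Krt77, the corneal keratin Krt12, Krt24, and 19 keratins of hair and root sheath. Summed over the 12 skin and hair follicle genes, CPM was 16.9 to 32.9 per mouse, of which Tchh alone gave 12.3 to 19.7.

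Promoter sequence is shown for Sprr2f and Sprr1a, members of one gene cluster whose values by mouse were set out above. In the RefSeq table (GRCm38.p6) 50 of the 69 genes had an entry, and 250 bases before the annotated start were searched on both strands for TATAAA (the core of a TATA box), TGANTCA (the AP-1 motif) and GGGCGG (a GC box). Both genes are shown with matches to these 3 motifs in capitals.
Sprr2f: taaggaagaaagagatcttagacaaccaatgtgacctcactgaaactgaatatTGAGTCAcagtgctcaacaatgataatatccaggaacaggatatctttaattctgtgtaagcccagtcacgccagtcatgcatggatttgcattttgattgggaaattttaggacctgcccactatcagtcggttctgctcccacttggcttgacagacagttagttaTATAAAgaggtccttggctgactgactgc
Sprr1a: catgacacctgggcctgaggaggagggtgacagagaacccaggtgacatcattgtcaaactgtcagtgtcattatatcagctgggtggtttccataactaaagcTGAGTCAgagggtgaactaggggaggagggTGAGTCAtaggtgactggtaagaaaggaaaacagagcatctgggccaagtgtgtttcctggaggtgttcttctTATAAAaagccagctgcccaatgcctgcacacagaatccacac
These windows are chr3:92364937-92365186 (+ strand) and chr3:92485882-92486131 (- strand). Sprr2f held 1 TATAAA at -29 and 1 TGANTCA at -197, and Sprr1a held 1 TATAAA at -43 and 2 TGANTCA, counted from the start annotated in RefSeq. For Sprr1a that start lies inside the GENCODE span given above, so its window overlaps the gene as annotated there. Over 32851 promoters of the same length 12.4% held TATAAA and 6.75% TGANTCA. Krt20 also held TATAAA at -29, Krt7 held 4 GGGCGG (32.7% of all promoters held at least 1), and Krt8 and Krt18 held none of the 3 motifs.

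Antisense genes overlap some of the genes above, and the strand setting of the counting is not given in the sources used here. Krt7 overlaps Gm671 (1.17 to 2.54 CPM), Krt80 overlaps Gm35853 (0.654 to 2.74 CPM) and Krt8 overlaps Gm36026 (at most 0.289 CPM), all far below the keratin in the same mice. Without the 12 tested genes that overlap another annotated gene, 3 rose between cystic and noncystic Pkd2Δ17/Δ17 kidneys (Krt18, Krt19 and Sprr2g) and 1 fell with the deletion in cystic kidneys (Krt18).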

How the data were processed

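RNA-seq of whole kidneys from 12 mice in 4 groups of 3 was used. The authors trimmed reads with Trim Galore 0.6.3, aligned them to GRCm38 with STAR 2.5.3a and deposited raw whole-number counts of uniquely mapped reads per gene for Ensembl release 94 models, without normalization. All columns were assigned to mice by the labels. Of 54532 gene IDs, 54495 were found in GENCODE M21, which gave coordinates, overlaps and lengths. The table holds 343 unnamed genes with 0.0225% of reads.

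Tests used the quasi-likelihood method of edgeR 4.0.16 (R 4.3.3) with TMM scaling and a mean for each group, fitted to all 12 mice together (residual degrees of freedom, 8). The 24642 genes with an average log2CPM (prior count 2) of -3 or more were tested, and p-values were adjusted over all of them by Benjamini-Hochberg at 0.05. CPM values are TMM-scaled, and levels per kb use 1 annotated transcript per gene or its coding part. Depth was 18800307 to 24453033 counts per mouse. Each replicate is a mouse. The code was tested on simulated data. In 5 simulations of the deletion in cystic kidneys 7.16% of edgeR calls and 5.70% of limma-trend calls at 0.05 were false. Alternatives were limma-trend 3.58.1 (prior count 3) with library totals, DESeq2 1.42.0, other scalings, no cutoff, filterByExpr, the compared groups only, Xist (log2 of CPM plus 0.5) as covariate, and leaving out each mouse.

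The genes and lists were chosen with earlier results of these data known. Every tested gene of the families is named; values in every mouse are given for genes past the threshold and those with an average log2CPM of at least 1. List genes are named if past the threshold, up to the 4 with the smallest p. The values of 2 of these list genes are not reported here. Uroplakins, Aqp2, Lor, Flg, Krtdap and Tchh are named besides, as markers. Dmkn, Scel and Tgm1 are named as further genes of the cornified envelope list.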

Additional observations from a re-analysis of the deposited data

How the results depend on the processing

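With 3 mice per group the calls near the threshold moved with the processing. Over 274 refits of 19 gene and comparison pairs named in the text, 229 stayed on their side of the threshold, 27 lost the call and 18 gained it. None changed sign. The refits used the same or most of the same mice, and genes with changes near 0, such as Krt14, were left out. The kept signs therefore say little about direction. For the deletion in cystic kidneys the count of lower genes, 2, became 3 with limma-trend and with DESeq2 (Krt8 added), 9 with no cutoff, 1 with filterByExpr, 0 in a fit on the compared groups only, 4 with Xist as a covariate, 1 without genes that overlap another one, and 0 to 5 when a mouse was left out. For cystic against noncystic kidneys with Pkd2Δ17/Δ17 the count of higher genes, 6, became 3 without overlapping genes and stayed at 5 to 7 otherwise, while the count of lower genes, 2, became 1 with limma-trend, library totals or Xist, 1 with DESeq2 or filterByExpr (Krt25 had no adjusted p in either), 4 in the compared groups only, 6 with no cutoff, and 0 to 2 when a mouse was left out. For the interaction 5 genes were called with no cutoff and 0 otherwise, and for the deletion in noncystic kidneys 0 throughout. For cystic against noncystic Pkd2+/+ kidneys, which chose the families and from which nothing is read, the count of higher genes was 7 to 9 when a mouse was left out, and that of lower genes, 1, became 0 in the compared groups or with Xist, 0 with DESeq2 or filterByExpr (Sprr2a1 had no adjusted p in either), 3 with no cutoff, and 0 to 2 when a mouse was left out. With no cutoff, 33191 genes were fitted and the prior degrees of freedom became infinite (8.12 in the fit used), so each gene's own spread no longer counted; over all genes calls for the deletion in cystic kidneys rose from 549 to 1639. No paired analysis was possible because the mice share no replicate numbers between groups. Depth limits the genes with few reads: Krt25, Krt79, Krt83 and Sprr2a1 rest on at most 29 reads in a mouse.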
